A study of Mus musculus with 9 samples.

Results

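Iron and zinc handling genes, 9 in number, were followed across all libraries of a study of mouse brain endothelial cells: Tfrc, Slc11a2, Slc40a1, Fth1, Ftl1, Slc39a8, Slc39a10, Slc30a1 and Mt1. They were taken by symbol, and all 9 were found among the 23420 genes of the deposited count matrix and passed the filter on low counts, as did 13317 genes in all. Transcripts were measured by bulk RNA-seq in 3 genotypes of 6-month-old C57BL/6 mice labelled male, with 3 libraries per genotype and 1 mouse named per library. WT mice carried no listed alteration. APP/PS1 is a transgenic amyloid model of Alzheimer disease, and APP/PS1xRIPK1KD mice carried the same background together with an alteration of the kinase gene Ripk1 that the labels name only as RIPK1KD. In every genotype the cells were sorted from brain homogenate as CD31 positive and CD45 negative, and 20000 cells entered each Smart-seq2 library, which reads poly(A) RNA after PCR amplification of the cDNA. The promoter that drives the transgenes and the nature of the Ripk1 allele are not given in the sources used here.

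Brain endothelial cells form the blood-brain barrier, so the metal supply of the brain passes through them. Transferrin-bound iron is taken up by the transferrin receptor Tfrc, leaves the endosome through Slc11a2 (DMT1), is stored in ferritin made of heavy (Fth1) and light (Ftl1) chains, and leaves the cell through Slc40a1 (ferroportin). Zinc enters through importers of the Slc39 (ZIP) family such as Slc39a8 and Slc39a10, leaves through Slc30a1 (ZnT1), and is bound by metallothioneins such as Mt1. Iron regulatory proteins bind short RNA hairpins: in a 5′ UTR they block translation when iron is low, and in the 3′ UTR of Tfrc they protect the message from decay. Zinc acts on transcription through Mtf1, which binds metal response elements in promoters such as those of Mt1 and Slc30a1.

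The hairpin form was searched in the UTRs of the GENCODE M21 annotation on GRCm38, because such hairpins are the sites through which iron regulates several of these messages. A match was an unpaired C, 5 stem bases, the 6-base loop CAGTGN and 5 bases that pair with the stem, with G-U pairs allowed. Of the 9 genes, 4 held a match, 7 hairpins in all: Tfrc in its 3′ UTR, and Slc40a1, Fth1 and Ftl1 in the 5′ UTR. The form was found in 0.148% of 20899 genes with a 5′ UTR and 0.613% of 21028 genes with a 3′ UTR. It is a form already known from such messages, so matches in these genes were fixed in advance and are no enrichment. Each is shown 5′ to 3′ on the strand of the gene, with the loop in capitals and 6 bases of flank at either end.
Tfrc, 3′ UTR, chr16:32631219-32631247, plus strand: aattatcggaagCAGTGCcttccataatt
Tfrc, 3′ UTR, chr16:32631598-32631626, plus strand: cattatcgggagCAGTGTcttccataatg
Tfrc, 3′ UTR, chr16:32631663-32631691, plus strand: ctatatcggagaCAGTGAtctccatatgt
Tfrc, 3′ UTR, chr16:32631710-32631738, plus strand: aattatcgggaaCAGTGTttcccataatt
Slc40a1, 5′ UTR, chr1:45925465-45925493, minus strand: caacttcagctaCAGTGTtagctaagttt
Fth1, 5′ UTR, chr19:9982732-9982760, plus strand: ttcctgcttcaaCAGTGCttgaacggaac
Ftl1, 5′ UTR, chr7:45459779-45459807, minus strand: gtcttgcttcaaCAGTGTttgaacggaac
Tfrc, the uptake receptor, held 4 copies downstream of its coding sequence, while the exporter and both ferritin chains each held 1 upstream of it. These letters were not found in the annotated UTRs of Slc11a2, Slc39a8, Slc39a10, Slc30a1 or Mt1. An isoform of Slc11a2 is known to carry an iron-responsive element in its 3′ UTR, which this strict pattern does not catch. A match describes sequence only, and counts of RNA do not measure translation.

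Total expected counts ran from 16263792 to 52413200 per library with a median of 46603518, the lowest in replicate 1 of APP/PS1. Endothelial identity was plain: the 10 endothelial markers summed to between 13240 and 16290 CPM (counts scaled to the TMM-adjusted library size) in the 9 libraries, led by Cldn5 and Flt1, and 0 of them were at 0. Replicates 1 and 2 of every genotype held Xist at 264 to 534 CPM and Y-linked transcripts at 0.434 CPM or less, whereas replicate 3 held Xist at 4.78 CPM or less and Y-linked transcripts at 150 to 185 CPM. The libraries numbered 1 and 2 thus went against the male label, and ratios are also given within replicates 1 and 2 and within replicate 3, the latter from 1 library against 1. Ripk1 stood at 35.0 to 48.1 CPM in WT, 40.9 to 75.3 CPM in APP/PS1 and 31.4 to 44.9 CPM in APP/PS1xRIPK1KD, so the ranges overlapped. Mural cell markers (10 of 10 in the matrix, 0 at 0) summed to 11.6 to 56.1 CPM in WT, 176 to 229 CPM in APP/PS1 and 66.6 to 256 CPM in APP/PS1xRIPK1KD. Fibroblast markers (6 of 6, Lum at 0 in every genotype) were low and also set WT apart, at 0.132 to 1.24 CPM against 6.82 to 13.4 CPM in APP/PS1 and 2.06 to 7.26 CPM in APP/PS1xRIPK1KD. Choroid plexus markers (6 of 6, 0 at 0) summed to 201.5 to 362 CPM in WT and APP/PS1 together and 380 to 515 CPM in APP/PS1xRIPK1KD. The ribosomal RNA precursor gene Rn45s took 29.65% to 33.77% of counts in WT and 15.78% to 28.62% in the other genotypes. The part of these markers in the results was not tested. In bulk RNA, fewer cells of a type and less RNA per cell cannot be told apart.

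The ferritin chains were the most abundant of these messages and Slc11a2 the least. Per kilobase of merged exons, Ftl1 averaged 737 ± 93.0 CPM and Fth1 253 ± 80.1 CPM (SD, n = 9 libraries), at the 99.8th and 99.3rd percentile of 12467 tested genes with a length. Mt1 followed at 102 ± 41.8 CPM per kb, Slc39a10 at 84.4 ± 14.1, Tfrc at 44.4 ± 12.1, Slc40a1 at 28.8 ± 5.76, Slc30a1 at 23.5 ± 3.96 and Slc39a8 at 13.7 ± 2.58. Slc11a2 averaged 3.13 ± 0.464 CPM per kb, at the 44.4th percentile. In this order the ranges over 9 libraries overlapped between Fth1 and Mt1, Mt1 and Slc39a10, Tfrc and Slc40a1, and Slc40a1 and Slc30a1, and did not overlap at the other 4 steps. Merged exons overstate the length of a short message, and with the length of the principal transcript Slc40a1 (76.9 CPM per kb) stood above Tfrc (56.1) and Slc39a8 (29.8) above Slc30a1 (23.5), while the other genes kept their places. On that scale the ranges of Ftl1 and Fth1 also overlapped, with Ftl1 higher in 8 of 9 libraries. Only the steps from Mt1 to Slc39a10 and from Slc30a1 to Slc11a2 were then without overlap. The annotation holds 2 pseudogenes named for Fth1 and 3 named for Ftl1, none of them a row of the matrix, so the counts of both ferritins are uncertain where reads are shared with such copies. In the authors' deposited table for APP/PS1 against WT, not scaled by length, Fth1 stands above Ftl1, at a log2 abundance of 10.3 against 9.05. The matrix gives 9.86 and 9.94 for the same genotypes, so the order of the 2 chains depends on the counts used.

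**Figure D1:**
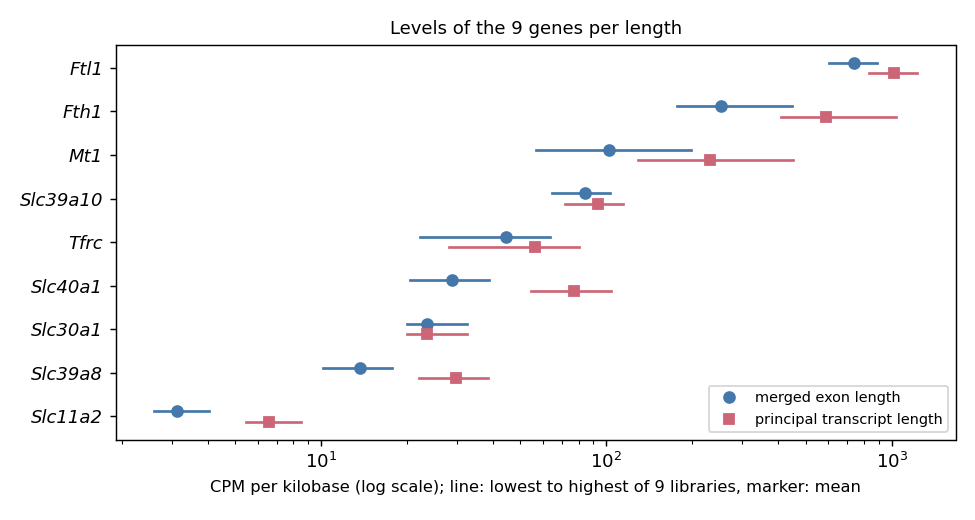
Level of each of the 9 genes in CPM per kilobase on a log axis, with merged exon length (circles) and principal transcript length (squares). Markers are means and lines run from the lowest to the highest of 9 libraries. Ftl1 leads at 737 CPM per kb of merged exons and Slc11a2 is last at 3.13 on the same scale.

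None of the 9 genes passed an FDR of 0.05 in any comparison of genotypes. By the edgeR quasi-likelihood test, 0 of 9 were called in APP/PS1 against WT, where 0.0225% of all tested genes were, 0 of 9 in APP/PS1xRIPK1KD against APP/PS1 (0.00751% of all), 0 of 9 in APP/PS1xRIPK1KD against WT (0.0375% of all), and 0 of 9 by the test of any difference among the genotypes (0.0451% of all). DESeq2 also called 0 of 9 in each. At an unadjusted p under 0.05 stood Mt1 in APP/PS1 against WT, lower (1 of 9, against 6.14% of all genes), 0 of 9 in APP/PS1xRIPK1KD against APP/PS1 (4.78% of all), Tfrc in APP/PS1xRIPK1KD against WT, higher (1 of 9, against 6.18%), and 0 of 9 in the test of any difference (5.62% of all). Libraries did not overlap for Mt1 in APP/PS1 against WT (1 of 9, against 10.9% of all genes), and for Slc30a1 in both APP/PS1xRIPK1KD against APP/PS1 (1 of 9, against 9.98%) and APP/PS1xRIPK1KD against WT (1 of 9, against 12.0%). With 9 genes, counts of 0 and 1 lie near those backgrounds. The median log2 fold change of the 9 genes was 0.01, 0.11 and 0.16 in the 3 comparisons in that order, beside 0.00, 0.00 and 0.00 over all genes tested. The comparisons share libraries, so their values are set side by side and not counted as separate evidence.

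**Figure D2:**
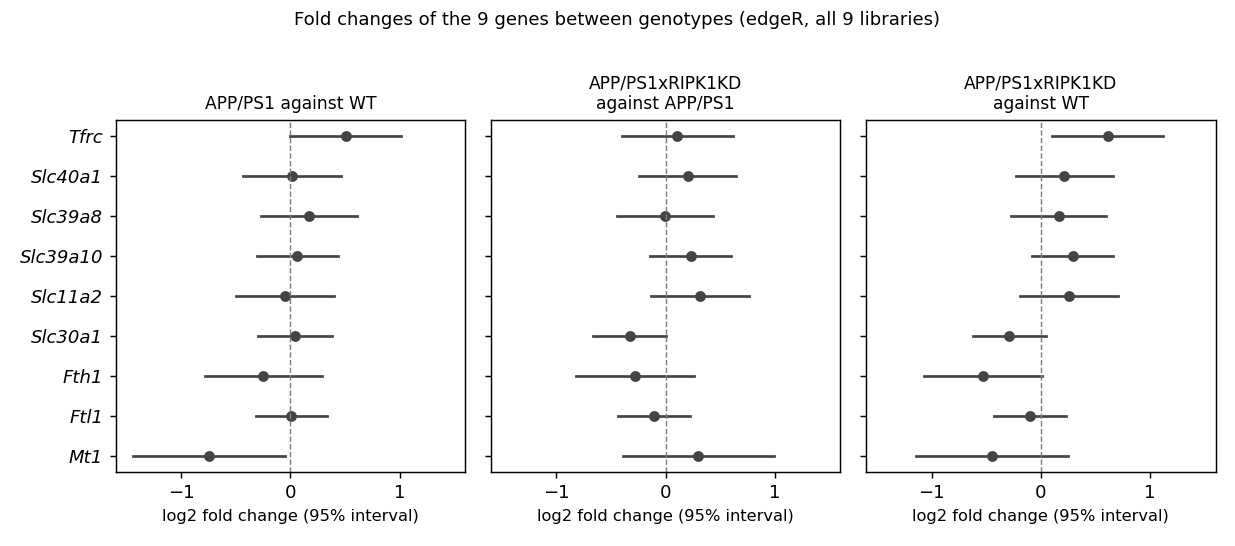
Log2 fold change (marker) and its 95% interval (line) for each of the 9 genes in the 3 comparisons, from the edgeR fit of all 9 libraries. The interval leaves out 0 for Mt1 in APP/PS1 against WT (-0.75) and for Tfrc in APP/PS1xRIPK1KD against WT (0.61), before any adjustment for the number of genes tested.

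Tfrc, the receptor that brings transferrin-bound iron into the cell, read 137, 223 and 265 CPM in the 3 WT libraries, 350, 299 and 240 CPM in APP/PS1, and 312, 392 and 252 CPM in APP/PS1xRIPK1KD. The means were 208 ± 65.4, 296 ± 54.8 and 318 ± 70.4 CPM (SD, n = 3 each). WT replicate 3 lay above the lowest library of both other genotypes, so the groups overlapped. The log2 difference was 0.51 ± 0.23 (SE) for APP/PS1 against WT (edgeR adjusted p = 0.817), with a 95% interval of the fold from 0.998 to 2.02. For APP/PS1xRIPK1KD against WT it was 0.61 ± 0.23 (edgeR adjusted p = 0.721; fold interval 1.07 to 2.18), and between the APP/PS1 genotypes it was 0.11 ± 0.23 (edgeR adjusted p = 1.00; fold interval 0.757 to 1.53).

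The Tfrc difference was seen in replicates 1 and 2 and not in replicate 3. In replicates 1 and 2 both APP/PS1 genotypes lay above WT without overlap, at 1.80 and 1.96 times the WT mean. In replicate 3 the same ratios were 0.905 and 0.949, each from 1 library against 1. Separation within replicates 1 and 2 is of 2 libraries against 2, here and for the genes below. It often arises without a difference, and its share over all genes was not counted. With replicates 1 and 2 alone, the edgeR log2 difference was 0.85 for APP/PS1 against WT (adjusted p = 0.268) and 0.97 for APP/PS1xRIPK1KD against WT (adjusted p = 0.308). Without WT replicate 1, the library with the lowest Tfrc, the difference for APP/PS1 against WT was 0.28. Erythroid precursors also carry Tfrc. The erythroid marker sum (4 of 6 markers in the matrix, 0 of them at 0), led by Hba-a1, was 1163 to 1529 CPM in WT, 1123 to 5496 CPM in APP/PS1 and 1331 to 2377 CPM in APP/PS1xRIPK1KD. The library with the highest sum, APP/PS1 replicate 3, had the lowest Tfrc of its genotype. WT replicate 1 had both the lowest sum and the lowest Tfrc of its genotype. APP/PS1xRIPK1KD replicate 2 had the lowest sum and the highest Tfrc of its genotype. The part of erythroid RNA in the Tfrc values was not tested.

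Slc11a2, the endosomal exit route for iron, read 19.1, 20.9 and 16.7 CPM in WT, 16.5, 20.9 and 17.1 CPM in APP/PS1, and 20.3, 25.7 and 21.7 CPM in APP/PS1xRIPK1KD. The ranges of all 3 genotypes overlapped. Its log2 difference was -0.05 ± 0.21 in APP/PS1 against WT and 0.31 ± 0.21 in APP/PS1xRIPK1KD against APP/PS1, with a fold interval of 0.909 to 1.69 for the latter. In replicates 1 and 2 the ratio of means was 0.937 for APP/PS1 to WT and 1.23 for APP/PS1xRIPK1KD to APP/PS1, and in replicate 3 the ratios were 1.02 and 1.27. This was the least sampled of the 9 genes, with 262 to 1206 rounded counts per library.

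Slc40a1, the only known exporter of iron from vertebrate cells, read 224, 292 and 220 CPM in WT, 302, 256 and 184 CPM in APP/PS1, and 282, 350 and 222 CPM in APP/PS1xRIPK1KD. WT and APP/PS1 means were 245 ± 40.5 and 247 ± 59.4 CPM (SD, n = 3 each), a log2 difference of 0.01 ± 0.21 with a fold interval of 0.741 to 1.37. APP/PS1xRIPK1KD averaged 285 ± 64.1 CPM, a log2 difference of 0.20 ± 0.21 from APP/PS1 (fold interval 0.845 to 1.57). Replicate 3 was the lowest library of each genotype. The ratio of APP/PS1 to WT was 1.08 in replicates 1 and 2 and 0.838 in replicate 3, and that of APP/PS1xRIPK1KD to APP/PS1 was 1.13 and 1.21. The ratio of Tfrc to Slc40a1 in CPM was 0.611, 0.764 and 1.21 in the WT libraries and 1.11 to 1.30 in the other 6, so that WT replicates 1 and 2 lay below every other library.

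Among the storage proteins, Fth1, the heavy chain with ferroxidase activity, read 910, 657 and 1550 CPM in WT, 832, 921 and 873 CPM in APP/PS1, and 678, 612 and 872 CPM in APP/PS1xRIPK1KD. WT replicate 3 stood apart at 1550 CPM, and the other 8 libraries lay between 612 and 921 CPM. The log2 difference was -0.25 ± 0.25 for APP/PS1 against WT and -0.53 ± 0.25 for APP/PS1xRIPK1KD against WT (edgeR adjusted p = 0.823; fold interval 0.478 to 1.01). Without WT replicate 3 these became 0.16 and -0.12, the first with the opposite sign. That library had the lowest summed microglial markers (53.0 CPM) and oligodendrocyte markers (29.6 CPM) of the 9, and the part of other cell types in its Fth1 value was not tested. Within replicates 1 and 2, APP/PS1xRIPK1KD lay below APP/PS1 at 0.736 times its mean, and in replicate 3 the ratio was 0.999.

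Ftl1, the light chain that favours mineralization of the iron core, read 1075, 975 and 976 CPM in WT, 933, 917 and 1192 CPM in APP/PS1, and 878, 808 and 1138 CPM in APP/PS1xRIPK1KD. Genotype means differed by little, with log2 differences of 0.01 ± 0.15, -0.11 ± 0.15 and -0.10 ± 0.15 in the 3 comparisons and fold intervals that lay between 0.740 and 1.26. In replicates 1 and 2 the order was WT, APP/PS1, APP/PS1xRIPK1KD without overlap, and in replicate 3 both APP/PS1 genotypes lay above WT, at 1.22 and 1.17 times its value. The ratio of Fth1 to Ftl1 in CPM was 0.674 to 1.00 in 8 libraries and 1.59 in WT replicate 3. It rests on the matrix, where Ftl1 stands higher relative to other genes than in the authors' deposited table.

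Of the zinc importers, Slc39a10 was the more abundant and read 398, 572 and 446 CPM in WT, 496, 589 and 394 CPM in APP/PS1, and 582, 628 and 523 CPM in APP/PS1xRIPK1KD. The log2 difference was 0.06 ± 0.17 for APP/PS1 against WT and 0.29 ± 0.17 for APP/PS1xRIPK1KD against WT (edgeR adjusted p = 0.892; fold interval 0.947 to 1.58), and ranges overlapped in every comparison. Within replicates 1 and 2 the latter ratio was 1.25 without overlap and in replicate 3 it was 1.17, while APP/PS1 to WT was 1.12 and 0.883. Slc39a8, which carries zinc, manganese and non-transferrin-bound iron, read 98.3, 107 and 86.3 CPM in WT, 125, 125 and 78.1 CPM in APP/PS1, and 99.6, 136 and 91.1 CPM in APP/PS1xRIPK1KD. Its log2 difference was 0.17 ± 0.20 for APP/PS1 against WT (fold interval 0.831 to 1.52) and -0.01 ± 0.20 between the APP/PS1 genotypes. In replicates 1 and 2 APP/PS1 lay above WT without overlap, at 1.22 times its mean, and in replicate 3 it lay below, at 0.905 times its value. Between the APP/PS1 genotypes the ratios were 0.943 and 1.17. As with Slc40a1, replicate 3 held the lowest Slc39a8 of each genotype.

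Slc30a1, the zinc exporter of the plasma membrane, was the most even of the 9 genes within APP/PS1xRIPK1KD. It read 108, 107 and 105 CPM there, against 136, 130 and 124 CPM in WT and 171, 118 and 113 CPM in APP/PS1. All 3 libraries of APP/PS1xRIPK1KD lay below all 6 of the other genotypes, in replicate 3 as in replicates 1 and 2. Taken singly, libraries did not overlap for 9.98% of all tested genes against APP/PS1 and 12.0% against WT. The share of genes set apart from both genotypes was not counted. The log2 difference was -0.33 ± 0.15 against APP/PS1 (edgeR adjusted p = 1.00; fold interval 0.631 to 1.00) and -0.29 ± 0.15 against WT (edgeR adjusted p = 0.877; fold interval 0.649 to 1.03). APP/PS1 replicate 1, the shallowest library, carried much of the first value: without it the difference was -0.12, and that against WT was -0.29. The choroid plexus sums given above separate the same 3 libraries from the other 6, and their part was not tested.

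**Figure D3:**
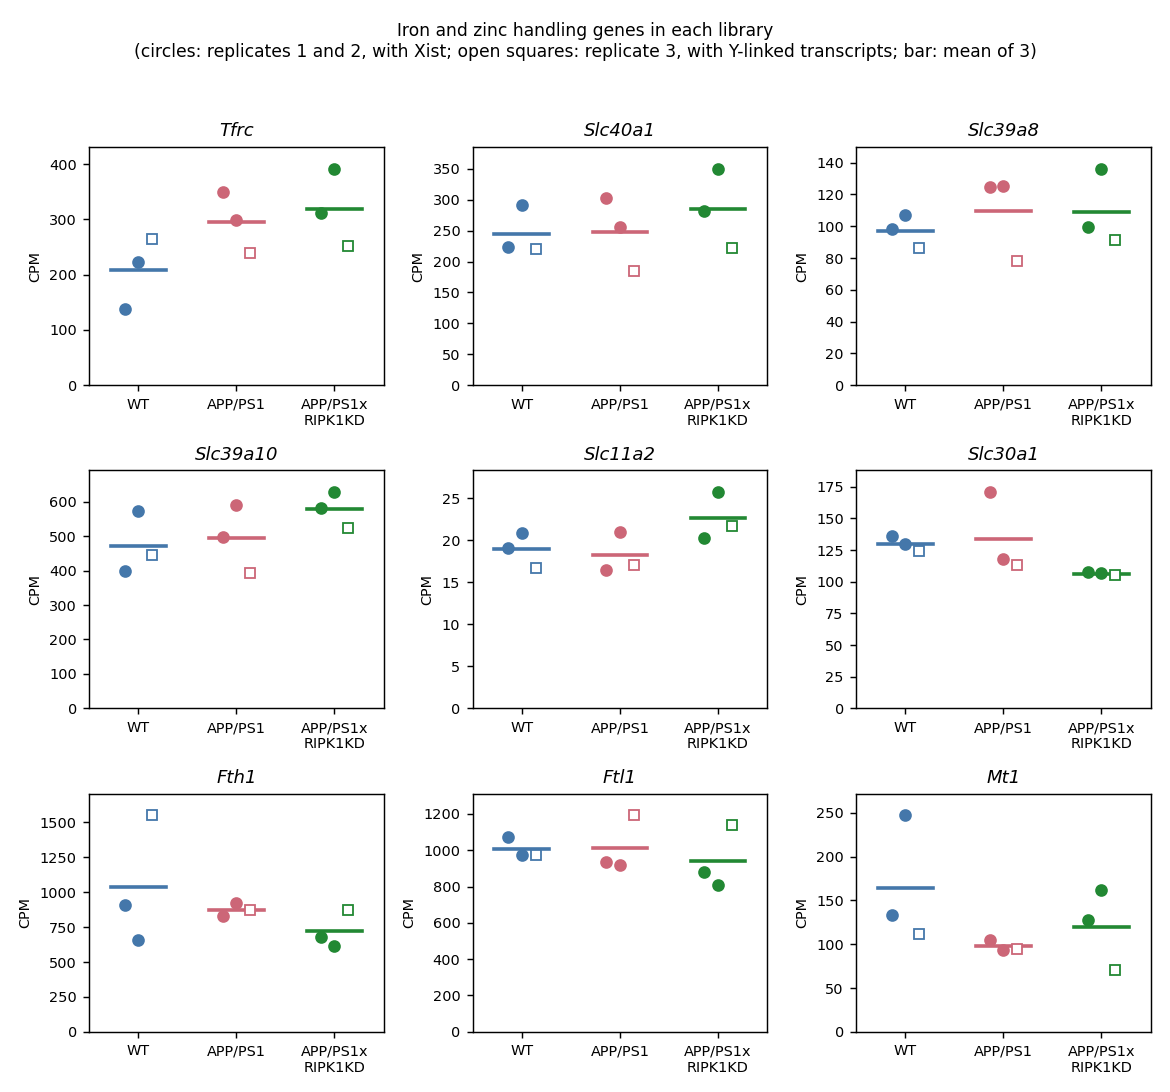
CPM of each gene in the 9 libraries by genotype. Circles are replicates 1 and 2, open squares replicate 3, and bars the mean of 3. Slc30a1 in APP/PS1xRIPK1KD (105 to 108 CPM) lies below all other libraries, Mt1 in APP/PS1 (93.3 to 105 CPM) below all WT libraries, and Fth1 reaches 1550 CPM in 1 WT library. The share of all genes set apart as Slc30a1 is was not counted.

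Mt1, a small cysteine-rich protein that binds zinc and copper, read 133, 247 and 111 CPM in WT, 105, 93.3 and 94.6 CPM in APP/PS1, and 128, 162 and 70.9 CPM in APP/PS1xRIPK1KD. All APP/PS1 libraries lay below all WT libraries, and APP/PS1xRIPK1KD spanned both. The log2 difference was -0.75 ± 0.32 for APP/PS1 against WT (edgeR adjusted p = 0.795), with a fold interval of 0.368 to 0.966. It was 0.30 ± 0.32 between the APP/PS1 genotypes (fold interval 0.761 to 1.99) and -0.45 ± 0.32 for APP/PS1xRIPK1KD against WT. WT replicate 2, at 247 CPM, carried much of this: without it the difference for APP/PS1 against WT was -0.32 (edgeR adjusted p = 0.998). In replicates 1 and 2 the APP/PS1 mean was 0.522 times that of WT, and in replicate 3 the ratio was 0.850. Both other differences also rested on single libraries: without WT replicate 2 that for APP/PS1xRIPK1KD against WT was -0.02, and without APP/PS1xRIPK1KD replicate 2 that between the APP/PS1 genotypes was 0.03. Within replicates 1 and 2 APP/PS1xRIPK1KD lay above APP/PS1 without overlap, at 1.46 times its mean, and in replicate 3 it lay below, at 0.749 times its value. Against WT its ratios were 0.761 and 0.637. Astrocytes are rich in metallothionein. The sum of 8 astrocyte markers was 76.7, 110 and 38.5 CPM in WT, 70.9 to 77.9 CPM in APP/PS1 and 75.9 to 93.7 CPM in APP/PS1xRIPK1KD, led by Gja1, with Aldh1l1, Gjb6 and Ntsr2 at 0 in WT. Gja1 averaged 71.3, 60.9 and 73.9 CPM in WT, APP/PS1 and APP/PS1xRIPK1KD and made up most of the sum. Slc1a3, the next marker, was lowest in WT, at 2.47, 7.44 and 5.62 CPM in the same order. WT replicate 2 had both the highest sum and the highest Mt1, and the part of astrocyte RNA was not tested.

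Mt2, the neighbouring metallothionein gene, followed Mt1 library by library. It read 57.5, 102 and 58.6 CPM in WT, 52.1, 37.7 and 49.4 CPM in APP/PS1, and 51.8, 64.8 and 29.0 CPM in APP/PS1xRIPK1KD. APP/PS1 again lay below WT without overlap, with a log2 difference of -0.65 ± 0.29 (edgeR adjusted p = 0.795). The ratio of Mt1 to Mt2 in CPM stayed between 1.90 and 2.50 in the 9 libraries. Over the libraries their log2 CPM correlated with a Pearson r of 0.947 and a Spearman rho of 0.917. Without the 2 libraries farthest from the Mt1 median r was 0.785, given as a description because the pair was chosen for its likeness.

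The promoters of Mt1 and Mt2 are shown because zinc acts on such promoters through Mtf1. They run from 250 bases before to 50 bases after the RefSeq start on GRCm38.p6, plus strand, and capitals mark matches on either strand to the core of the metal response element, searched as TGCACNC and TGCGCNC.
Mt1, chr8:94178839-94179138: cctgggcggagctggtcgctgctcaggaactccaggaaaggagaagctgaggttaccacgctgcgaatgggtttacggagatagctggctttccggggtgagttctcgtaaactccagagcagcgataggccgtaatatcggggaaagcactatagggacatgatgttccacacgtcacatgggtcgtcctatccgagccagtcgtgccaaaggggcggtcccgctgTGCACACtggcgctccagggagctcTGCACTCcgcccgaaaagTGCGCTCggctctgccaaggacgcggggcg
Mt2, chr8:94172368-94172667: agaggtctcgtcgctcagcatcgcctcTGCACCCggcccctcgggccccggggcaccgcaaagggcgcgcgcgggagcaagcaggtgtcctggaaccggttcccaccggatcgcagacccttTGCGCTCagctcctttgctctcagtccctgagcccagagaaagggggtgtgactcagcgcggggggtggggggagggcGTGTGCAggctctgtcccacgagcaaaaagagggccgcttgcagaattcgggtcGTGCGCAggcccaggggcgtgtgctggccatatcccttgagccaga
Mt1 held 3 matches, all on the strand of the gene, and Mt2 held 4, of which 2 were on the other strand. The Slc30a1 window (chr1:191906531-191906830) held 2, both on the other strand. Of 32851 promoter windows of this length, 25.7% held at least 1 match and 1.97% at least 3. RefSeq windows were matched for 7 of the 9 genes, not for Slc40a1 and Slc11a2. Fth1, Ftl1 and Slc39a10 had no match. Slc39a8 had 1 in 1 of its 2 windows, and Tfrc had 2 overlapping matches in 1 of its 2 windows. A match describes letters in these windows and no binding. Bbs2 and Pnpla6 ran about as closely with Mt1 (Pearson r 0.952 and 0.946) as Mt2 did (0.947), and their promoters are not shown. The part of these motifs in the shared levels was not tested.

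**Figure D4:**
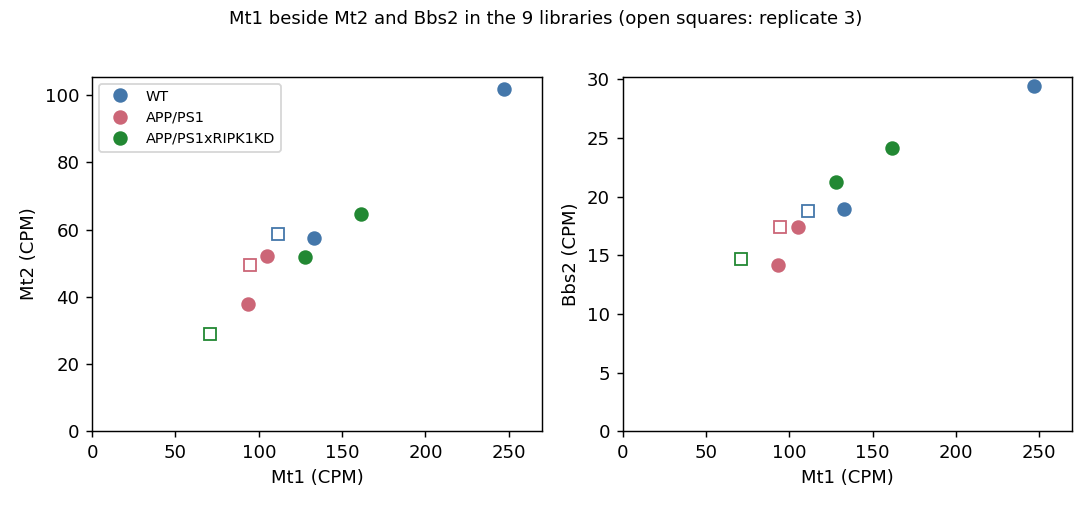
CPM of Mt2 (left) and Bbs2 (right) against Mt1 in each of the 9 libraries, coloured by genotype, with open squares for replicate 3. WT replicate 2 is highest on every axis (247 CPM of Mt1, 102 CPM of Mt2, 29.5 CPM of Bbs2).

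Beyond the 9, 65 further iron and zinc genes were listed, 64 were in the matrix and 51 passed the filter. None was called at an FDR of 0.05 by edgeR in any comparison. At an unadjusted p under 0.05 stood 4 higher and 1 lower in APP/PS1 against WT, 1 higher in APP/PS1xRIPK1KD against APP/PS1, and 5 higher and 1 lower in APP/PS1xRIPK1KD against WT, where 6.14%, 4.78% and 6.18% of all tested genes stood. Libraries did not overlap for 2 higher and 5 lower, 5 higher and 2 lower, and 4 higher and 1 lower in the same order, beside 10.9%, 9.98% and 12.0% of all tested genes. With 51 genes these counts lie near the background. At an unadjusted p under 0.05, both counts of higher genes against WT include Steap2 and Slc39a12, with a WT mean of 0.0143 and 0 CPM. The counts without overlap include Steap2 as higher in both comparisons with WT, and Slc39a12 as higher in APP/PS1xRIPK1KD against WT. Steap2 and Slc39a12 passed the filter on low counts only through APP/PS1-bearing libraries, so they could stand only as higher than WT. The median log2 fold change of the 51 was 0.04, 0.02 and 0.05.

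In iron uptake, Steap3, the endosomal reductase that prepares iron for Slc11a2, read 9.97, 11.1 and 11.4 CPM in WT, 7.68, 6.36 and 7.35 CPM in APP/PS1, and 13.7, 15.1 and 8.99 CPM in APP/PS1xRIPK1KD. APP/PS1 lay below both other genotypes without overlap, a separation whose share over all genes was not counted. The log2 difference was -0.61 ± 0.28 for APP/PS1 against WT (edgeR adjusted p = 0.819) and 0.82 ± 0.28 for APP/PS1xRIPK1KD against APP/PS1 (edgeR adjusted p = 0.980). Trf, transferrin, was present at 10.1 to 27.4 CPM. Its log2 abundance over WT and APP/PS1 is 1.53 in the authors' deposited table against 4.15 in the matrix, so its level depends on the counts used. In iron release, Cp, the ferroxidase ceruloplasmin, spanned 169 to 525 CPM, and Heph, its membrane-bound relative hephaestin, 2.24 to 17.5 CPM, with overlap between all genotypes.

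Among the iron sensors, Ireb2, which encodes iron regulatory protein IRP2, read 30.7, 24.9 and 42.0 CPM in WT, 43.7, 43.5 and 36.7 CPM in APP/PS1, and 39.5, 48.3 and 43.9 CPM in APP/PS1xRIPK1KD. As with Tfrc, WT replicates 1 and 2 lay below every other library and WT replicate 3 did not. Its log2 difference for APP/PS1xRIPK1KD against WT was 0.43 ± 0.20 (edgeR adjusted p = 0.807). Fbxl5, the iron-sensing ubiquitin ligase subunit that removes IRP2, stood at 48.2 to 72.7 CPM. In the hepcidin axis Id1, a target of BMP signalling, was abundant at 858 to 1358 CPM and Smad7, an inhibitor of that pathway, stood at 38.0 to 74.2 CPM. Id1 differed by -0.30 ± 0.15 between the APP/PS1 genotypes (edgeR adjusted p = 1.00).

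Ncoa4, the receptor that delivers ferritin to lysosomes, read 115, 139 and 162 CPM in WT, 152, 171 and 141 CPM in APP/PS1, and 161, 188 and 173 CPM in APP/PS1xRIPK1KD, a log2 difference of 0.32 ± 0.15 for APP/PS1xRIPK1KD against WT (edgeR adjusted p = 0.792). The log2 abundance of Ncoa4 over WT and APP/PS1 is 4.90 in the authors' deposited table against 7.17 in the matrix, so its level depends on the counts used. The iron chaperones Pcbp1 and Pcbp2 averaged 240 and 158 CPM over the 9 libraries. In heme handling, 0 of 7 tested genes had a p under 0.05 in any comparison, with Alas1, the first enzyme of heme synthesis, at 491 to 803 CPM and the heme transporter Slc48a1 at 77.6 to 107 CPM. Slc25a37, mitoferrin 1, which carries iron into mitochondria and is prominent in erythroid cells, read 6.81, 11.4 and 6.33 CPM in WT, 19.8, 7.77 and 18.2 CPM in APP/PS1, and 11.9, 10.6 and 11.9 CPM in APP/PS1xRIPK1KD. Its log2 difference for APP/PS1 against WT was 0.89 ± 0.36 (edgeR adjusted p = 0.795), and the erythroid sums in those APP/PS1 libraries were 1660, 1123 and 5496 CPM, whose part in this value was not tested. The iron-sulfur assembly genes Iscu and Nfs1 averaged 96.7 and 33.8 CPM.

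On the zinc side, Slc39a11, an importer, read 11.5, 9.99 and 7.49 CPM in WT, 7.74, 5.78 and 10.4 CPM in APP/PS1, and 6.10, 5.77 and 1.91 CPM in APP/PS1xRIPK1KD. The log2 difference for APP/PS1xRIPK1KD against WT was -1.07 ± 0.44, without overlap (edgeR adjusted p = 0.764). Slc39a9 differed by 0.43 ± 0.20 in the same comparison (edgeR adjusted p = 0.803), and Slc39a7 and Slc39a1, the most abundant of the listed importers in the matrix, averaged 119 and 108 CPM. The authors' deposited table puts Slc39a7 lower, at a log2 abundance of 3.75 against 6.97 for Slc39a1. Among the exporters, Slc30a7, which loads zinc into the early secretory pathway, averaged 41.8 ± 5.76 CPM in WT, 55.2 ± 9.98 CPM in APP/PS1 and 44.3 ± 3.07 CPM in APP/PS1xRIPK1KD (SD, n = 3 each). Its log2 difference for APP/PS1 against WT was 0.40 ± 0.17 (edgeR adjusted p = 0.795). Slc30a6 differed by -0.52 ± 0.30 between the APP/PS1 genotypes, and Slc30a9 and Slc30a5 averaged 61.7 and 53.2 CPM. Mtf1, the factor that binds metal response elements, averaged 18.0 ± 2.71, 22.4 ± 4.60 and 18.6 ± 3.74 CPM (SD, n = 3 each) in WT, APP/PS1 and APP/PS1xRIPK1KD. Its APP/PS1 mean was the highest of the 3, where those of Mt1 and Mt2 were the lowest, with an edgeR adjusted p = 0.906 for APP/PS1 against WT.

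**Figure D5:**
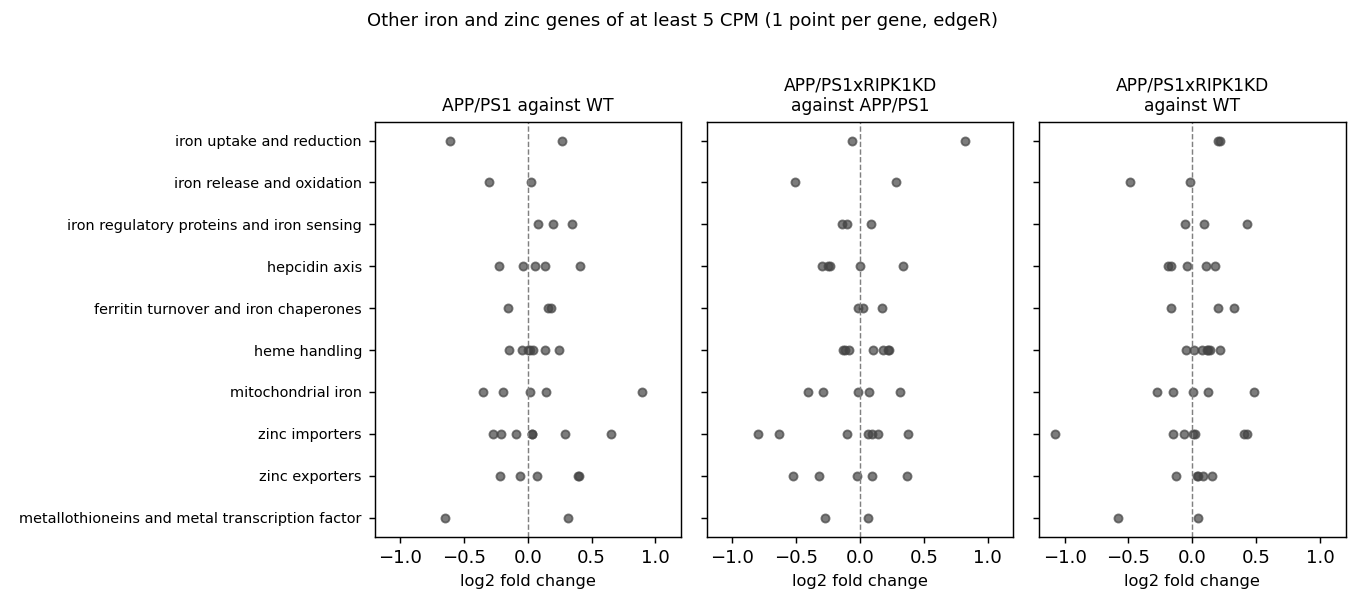
Log2 fold change in the 3 comparisons for the 41 further iron and zinc genes of at least 5 CPM on average, 1 point per gene, grouped by list. Values run from -0.65 to 0.89 in APP/PS1 against WT, from -0.80 to 0.82 in APP/PS1xRIPK1KD against APP/PS1 and from -1.07 to 0.48 in APP/PS1xRIPK1KD against WT.

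The genes whose log2 CPM ran most like a given gene over the 9 libraries were taken from 8399 genes of at least 10 CPM, as a description. For Tfrc they were Map3k1 (Pearson r 0.931), Fbxo11 (0.922) and Ctbp2 (0.911). For Slc40a1 they were Tomm40l (0.942), Focad (0.937) and Nit2 (0.924). For Mt1 they were Bbs2 (0.952), Mt2 (0.947) and Pnpla6 (0.946).

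For APP/PS1 against WT, the authors' deposited table lists all 9 genes, and none is among its 26 of 12460 genes with an FDR under 0.05. In the authors' deposited table the log2 fold change of Tfrc is 0.48 (p-value 0.0677, FDR 0.857) and that of Mt1 is -0.71 (p-value 0.0267, FDR 0.668). For Fth1 and Slc40a1 the authors' deposited table gives -0.26 and 0.02. That table may rest on other counts than the matrix, since its abundances differ for some genes (given among the other observations).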

How the data were processed

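The authors deposited RSEM expected counts per gene symbol for 9 libraries; the submitters' processing notes name Bowtie 0.12.2, RSEM, edgeR 3.10.2 and mm10 (GRCm38), with a gene annotation not given in the sources used here. The authors also deposited an edgeR table for APP/PS1 against WT with log2 fold changes, log2 abundances, a test score per gene, p-values and FDR, used only where named. Of the deposited expected counts 28.3% were not whole, and they were rounded. Genes were kept by filterByExpr (minimum count 10, minimum total 15), scaled by TMM and fitted in 1 edgeR quasi-likelihood model of all 9 libraries with 1 coefficient per genotype. The 3 contrasts were tested 2-sided and p-values adjusted by Benjamini-Hochberg over 13317 genes, with an FDR threshold of 0.05. CPM are per TMM-scaled library. Errors of log2 fold changes are standard errors. The fit was tested on simulated data. The libraries carry no strand and no molecular identifiers, so depth limits only counting error. One mouse is named per library.

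The 9 genes and the lists were chosen with earlier results of these data known. Named from the lists were the 2 genes of highest mean CPM per list and, per comparison, the 5 of smallest p among those of at least 5 CPM. The labels tie same-numbered libraries to no shared litter or batch, and replicate numbers were not used as pairs. Alternatives were DESeq2, RLE scaling, no filter, a replicate block, leaving out each library, replicates 1 and 2 only, leaving out Rn45s and, added after the data were seen, the principal transcript length. Software was R 4.3.3, edgeR 4.0.16, limma 3.58.1, DESeq2 1.42.0, Python 3.11.15 and matplotlib 3.10.9. Sequences are from GRCm38 with GENCODE M21 and from RefSeq (GRCm38.p6).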

Additional observations from a re-analysis of the deposited data

How the results depend on the processing

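None of the 9 genes was called in any comparison under any of the 15 alternatives, and the lowest FDR any of them reached was 0.268, for Tfrc in APP/PS1 against WT with replicates 1 and 2 only. Of 405 recomputed fold changes 377 kept their sign, and 16 of 27 gene and comparison pairs kept it in every alternative, among them Tfrc and Mt1 against WT, Slc30a1 in APP/PS1xRIPK1KD against both other genotypes, and Fth1 in APP/PS1xRIPK1KD against both. Signs turned under the replicate block for Slc40a1 (-0.00050) and Ftl1 (-0.0077) in APP/PS1 against WT and Slc39a8 between the APP/PS1 genotypes (0.0036), and with replicates 1 and 2 only for Fth1 (0.16) and Ftl1 (-0.15) in APP/PS1 against WT. Leaving out 1 library, log2 fold changes in APP/PS1 against WT ranged from -0.15 to 0.19 for Slc40a1, -0.0871 to 0.224 for Slc39a10, -0.172 to 0.0225 for Slc11a2, -0.17 to 0.15 for Slc30a1, -0.49 to 0.16 for Fth1 and -0.126 to 0.0713 for Ftl1. In APP/PS1xRIPK1KD against APP/PS1 they ranged from -0.0651 to 0.254 for Tfrc, -0.20 to 0.11 for Slc39a8 and -0.259 to 0.0263 for Ftl1, and in APP/PS1xRIPK1KD against WT from -0.0181 to 0.287 for Slc39a8 and -0.251 to 0.00922 for Ftl1. The cause of these changes was not tested.

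Counts of genes called were 3 in APP/PS1 against WT, 1 in APP/PS1xRIPK1KD against APP/PS1, 5 in APP/PS1xRIPK1KD against WT and 6 for any difference. DESeq2 gave 45, 19, 62 and 53. RLE scaling and leaving out Rn45s left all 4 counts as they were. Without the filter on low counts there were 7 in APP/PS1 against WT and 14 in APP/PS1xRIPK1KD against WT. The replicate block gave 2, 0, 0 and 0; same-numbered libraries of different genotypes correlated in their deviations at -0.0187 to 0.0983, with the replicate 3 pairs at 0.0391 to 0.0983, none above 0.1, and 4 of 9 were closest to a library of their own number. With replicates 1 and 2 only the last 3 counts were 0, 8 and 1. Leaving out 1 library gave 1 to 5, 0 to 4, 2 to 9 and 0 to 9. With the principal transcript length, levels per kb were 1021 for Ftl1, 588 for Fth1, 232 for Mt1, 76.9 for Slc40a1, 29.8 for Slc39a8 and 6.58 for Slc11a2.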

Other observations

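Bbs2, whose level ran most like that of Mt1, encodes a component of the BBSome of cilia and lies 80.2 kb from Mt1 on chromosome 8. It read 19.0, 29.5 and 18.7 CPM in WT, 17.4, 14.2 and 17.4 CPM in APP/PS1, and 21.3, 24.1 and 14.7 CPM in APP/PS1xRIPK1KD. APP/PS1 lay below WT without overlap, but Bbs2 was picked for its likeness to Mt1 in these same libraries. Its order by genotype is therefore a description and no separate evidence. Mt2 lies 5.51 kb from Mt1. Nup93, a nuclear pore gene 34.2 kb from Mt1 on the other side, was looked at after these values were seen and correlated with Mt1 at a Pearson r of 0.386 and a Spearman rho of 0.300 over the 9 libraries. Without the 2 libraries farthest from the Mt1 median, r with Mt1 was 0.901 for Bbs2 and 0.310 for Nup93.

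Slc39a12, a zinc importer known from astrocytes and named here after its values were seen, was at 0 in the 3 WT libraries, where 3 counts equal 0.0642 to 0.0885 CPM. It read 0, 0.634 and 2.60 CPM in APP/PS1 and 0.592, 0.753 and 0.306 CPM in APP/PS1xRIPK1KD. For APP/PS1 against WT its edgeR adjusted p = 0.787 here, and the authors' deposited table gives an FDR of 0.0190. Slc39a12 passed the filter here only through APP/PS1-bearing libraries, so the direction of its difference from WT was fixed by that filter.

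The authors' deposited table gives an average abundance per gene that can be set beside that of the matrix in the same 6 libraries of WT and APP/PS1. Over 11788 genes the authors' log2 value was higher by a median of 0.624, and 4.28% of genes lay more than 1 below that shift. Among the 61 iron and zinc genes compared, 4 did: Slc39a7 (-3.70), Trf (-3.25), Ncoa4 (-2.90) and Ftl1 (-1.51), as log2 differences relative to the median shift, named after their values were seen. Fth1 and Mt1 lay at -0.21 and 0.22.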
